A study of Mus musculus with 4 samples.

Results

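The genes of cholesterol and fatty acid synthesis were examined as a group of 37 named genes in cultured mouse regulatory T (Treg) cells from Junbfl/fl and Junbfl/flCd4-Cre mice. The list holds 6 SREBP regulators, 19 enzymes of the mevalonate and sterol pathway and 12 enzymes of fatty acid synthesis, elongation and desaturation. For each gene the brightest probe carrying its name on the array was taken. No probe carried the name Acat2, so this gene was not analysed here, and the probes of Me1 and Scd1 were too dim to enter the test. The other 34 members were tested among 22475 genes, and all 34 were well above background on all 4 arrays.

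RNA came from naive CD4 T cells of C57BL/6 mice, either Junbfl/fl controls (2 arrays) or Junbfl/flCd4-Cre (2 arrays). In both genotypes Junb, which encodes a subunit of the transcription factor AP-1, is flanked by loxP sites. In the second, Cre recombinase expressed from the Cd4 promoter deletes it in cells of the T lineage, so the gene is lost during thymic development and not at the start of culture. Cells of both genotypes were cultured for 3 days with plate-bound anti-CD3 at 1 μg/ml, anti-CD28 at 0.5 μg/ml, TGF-β1 at 5 ng/ml, and anti-IFN-γ and anti-IL-4, both at 5 μg/ml, which gives Treg cells in vitro. A label on extraction names colon, whereas the others name cultured Treg cells. The labels do not tell whether 2 arrays of 1 genotype are from different animals or cultures, and p-values here reflect only array-to-array spread, possibly technical.

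Sterol and fatty acid synthesis are both governed by the SREBP transcription factors, which sit in the membrane of the endoplasmic reticulum bound to their escort SCAP. When sterols are plentiful, INSIG proteins hold SCAP in place. When sterols fall, SCAP carries SREBP to the Golgi, where proteases release the part that enters the nucleus and binds sterol regulatory elements, usually beside sites for NF-Y and Sp1. SREBP-2 (Srebf2) acts mainly on the cholesterol pathway and SREBP-1 (Srebf1) mainly on fatty acid synthesis. Activated T cells switch on both arms to make membrane for growth and division, and in Treg cells the mevalonate pathway is known to be needed for suppressive function.

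Promoter sequences of 5 members are shown because they span the responses described here: Hmgcs1, Srebf2 and Sc5d from the sterol side, Fasn, the fatty acid enzyme with the most negative difference, and Elovl6, the member that rose. Each is the 160 bases directly before the RefSeq transcription start on build GRCm38.p6, written 5′ to 3′ on the gene's own strand: chr13:119690191-119690350 (+ strand) for Hmgcs1, chr15:82147109-82147268 (+) for Srebf2, chr9:42264301-42264460 (- strand) for Sc5d, chr11:120824548-120824707 (-) for Fasn and chr3:129532226-129532385 (+) for Elovl6. Capitals mark matches, on either strand, to 1 of 4 motifs: the sterol regulatory element TCACNCCAC and the NF-Y box CCAAT and the Sp1 box GGGCGG and the AP-1 site TGANTCA.
Hmgcs1: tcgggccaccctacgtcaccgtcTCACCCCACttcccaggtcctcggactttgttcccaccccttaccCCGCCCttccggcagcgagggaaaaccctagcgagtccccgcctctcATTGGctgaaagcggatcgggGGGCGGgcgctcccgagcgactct
Srebf2: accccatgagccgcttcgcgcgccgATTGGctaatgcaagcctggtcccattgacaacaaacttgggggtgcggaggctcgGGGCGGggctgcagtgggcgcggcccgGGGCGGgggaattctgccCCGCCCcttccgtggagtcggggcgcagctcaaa
Sc5d: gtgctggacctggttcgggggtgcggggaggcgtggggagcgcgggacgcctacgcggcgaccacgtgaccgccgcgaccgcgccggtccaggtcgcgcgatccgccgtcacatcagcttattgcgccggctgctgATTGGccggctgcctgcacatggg
Fasn: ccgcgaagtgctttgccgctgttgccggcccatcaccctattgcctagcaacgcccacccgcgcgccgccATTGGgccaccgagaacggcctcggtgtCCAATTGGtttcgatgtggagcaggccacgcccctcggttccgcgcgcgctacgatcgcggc
Elovl6: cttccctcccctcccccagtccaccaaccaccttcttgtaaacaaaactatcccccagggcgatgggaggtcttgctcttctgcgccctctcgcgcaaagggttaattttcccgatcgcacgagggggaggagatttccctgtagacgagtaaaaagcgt

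The printed stretch of Hmgcs1 held 1 sterol regulatory element, 137 bases before the start, with 1 NF-Y box and 2 Sp1 boxes downstream of it. That of Srebf2 held 1 NF-Y box and 3 Sp1 boxes, and that of Sc5d 1 NF-Y box. Fasn had 3 NF-Y matches, of which a pair overlap on opposite strands, and the Elovl6 stretch held none of the 4 motifs. The same search was made in the 300 bases from 250 before to 50 after the start, where the RefSeq table held 30 of the 37 members and 27025 genes in all. The NF-Y box was present in 25 of the 30 (83.3%) against 41.1% of all genes, and the Sp1 box in 24 of the 30 against 38.2%. Both boxes stood together in 21 of 30 members, 13 of them among 16 sterol enzymes, against 15.8% of all genes. The sterol regulatory element in this strict spelling was found in Hmgcs1 alone (1.44% of all genes), and the AP-1 site in Msmo1, Dhcr7 and Me1 (8.97% of all genes). A match of letters does not show that a factor binds there.

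Signals below are relative signals: the processed fluorescence of a probe divided by the 75th percentile of all probes on its array, so a value can be compared between arrays for 1 gene but not between genes. Differences are log2 of the arrays labelled Junbfl/flCd4-Cre (Cre arrays) minus the controls, with their standard error (SE) over 2 arrays per genotype. A gene was called when limma's p-value, Benjamini-Hochberg adjusted over all 22475 genes, was below 0.05. This rule called 8.46% of all genes: 7.03% were higher on the Cre arrays and 1.43% lower. Of the calls 83.1% were higher, but 21% when arrays were scaled by their median and 72.7% with the authors' deposited log2 signals. Whether called or not, the values of both Cre arrays lay below both controls in 38.5% of genes and above both in 36.6%. The median difference over all genes was 0.01, and it was -0.52 under median scaling.

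The deleted gene was read by 3 probes, of which 1 was at background on all arrays. The dimmer of the readable probes had processed signals of 47.2 and 31.7 on the controls against 4.11 and 1.47, not well above background, on the Cre arrays, which is at least 5.71-fold lower. The brightest had 9791 and 9072 on the controls, 1053 on Cre array 1 and 10078 on Cre array 2, so by this probe Cre array 2 was not lower than the controls, and that array is called here by its label only. The positions of the deleted part were not analysed here. Of 12 T cell markers, 11 had a probe and all 11 were well above background on all arrays, with a summed relative signal of 1000, 972, 816 and 749 (controls 1 and 2, Cre arrays 1 and 2). Of the 11, 8 were lower (72.7%, against 77.5% of genes of like brightness, binned as described below). limma called Cd2 (-1.33, adjusted p = 0.0484) and Thy1 (-0.98, adjusted p = 0.0418) lower, where 1.43% of all genes were called lower. Of 12 colon epithelium markers, Cdh1, Krt19, Krt20, Muc2, Tff3 and Vil1 were not above background on any array. On controls 1 and 2 and Cre arrays 1 and 2, 6, 4, 5 and 5 of the 12 were well above background. The list summed to 2.55 and 3.48 (controls) against 3.49 and 4.06 (Cre arrays). Of the 5 tested, 4 were higher and 1 lower, with a median of 0.39, or 0.06 relative to genes of like brightness. B cell markers summed to 4.92 and 1.75 against 9.29 and 5.7 (9, 6, 9 and 7 of 10 well above background on controls 1 and 2 and Cre arrays 1 and 2; Blk on none), and myeloid markers to 26.7 and 17.8 against 62.6 and 32.6 (8, 4, 10 and 8 of 12; Adgre1 and Fcgr1 on none). Dim genes were higher on the Cre arrays in general, with a median log2 difference of 1.25 over the 2248 dimmest. Relative to genes of like brightness, the 7 tested B cell markers had a median of 1.11 and the 8 tested myeloid markers 1.61. Some of these markers entered the test through the Cre arrays alone. Ms4a1 (3.18, limma adjusted p = 0.0292) and Ebf1 (1.67, adjusted p = 0.0479), well above background on all 4 arrays, were called higher, where 7.03% of all genes were. CD8 T and NK cell markers summed to 9.02 and 12 against 32.2 and 37.8, with Klrc1 and Ncr1 at background. Klra1 was the largest part on the Cre arrays, with 4.08 and 6.25 on the controls against 26.7 and 31.2. Of the 4 tested, 2 were higher and 2 lower, with differences from -1.04 to 2.52 and a median of 0.18. Stroma and endothelium markers summed to 29.2 and 24.3 against 17.9 and 18.2, with Cdh5, Pdgfra and Pdgfrb at background. Although this sum was lower on the Cre arrays, 5 of the 6 tested markers were higher and 1 was lower (-0.63). Their median was 1.08, or 0.50 relative to genes of like brightness. Col1a1 and Dcn were at least 1.88-fold and 3.22-fold higher on the Cre arrays. Both entered the test through the Cre arrays alone, which favours a higher value. In bulk RNA, fewer cells of a type and less RNA per cell cannot be told apart, and the part of these cells in the results was not tested.

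Over all 34 tested members, 28 had a negative and 6 a positive difference, with a median of -0.59, but limma called 1 (2.94% of members against 8.46% of genes), and this one, Elovl6, was higher. At an unadjusted p below 0.05 there were 16 members, against 9302 of the 22475 genes. The groups did not overlap in 24 members lower and 5 higher, and overlapped in 5. Across the whole array the difference went with the brightness of the probe, so the members are set here against genes of like brightness. With all genes ranked by mean level and divided into 10 equal brightness bins, the dimmest bin had a median difference of 1.25 and the brightest -0.35, and 27 of the 34 members lay in the 4 brightest bins. Genes of the members' own bins were lower in 70.2% of cases, against 82.4% of members, and did not overlap lower in 59.5%, against 70.6% of members.

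**Figure D1:**
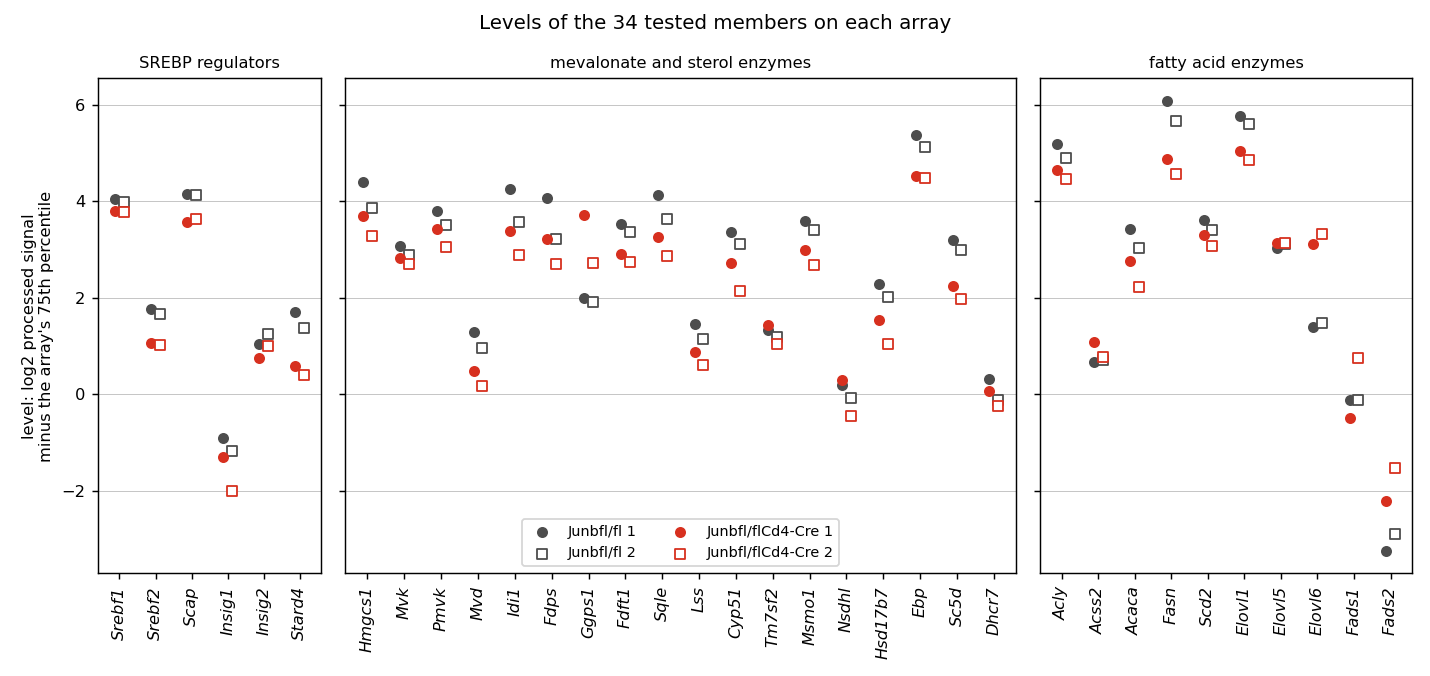
Level of each of the 34 tested members on each array (y axis: log2 processed signal minus the array's 75th percentile), by role; filled circles are array 1 and open squares array 2 of each genotype, controls grey and Cre arrays red. Most red symbols lie below the grey ones of the same gene, and Elovl6, Fads2 and Ggps1 lie above them; levels can be compared within a gene only.

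**Figure D2:**
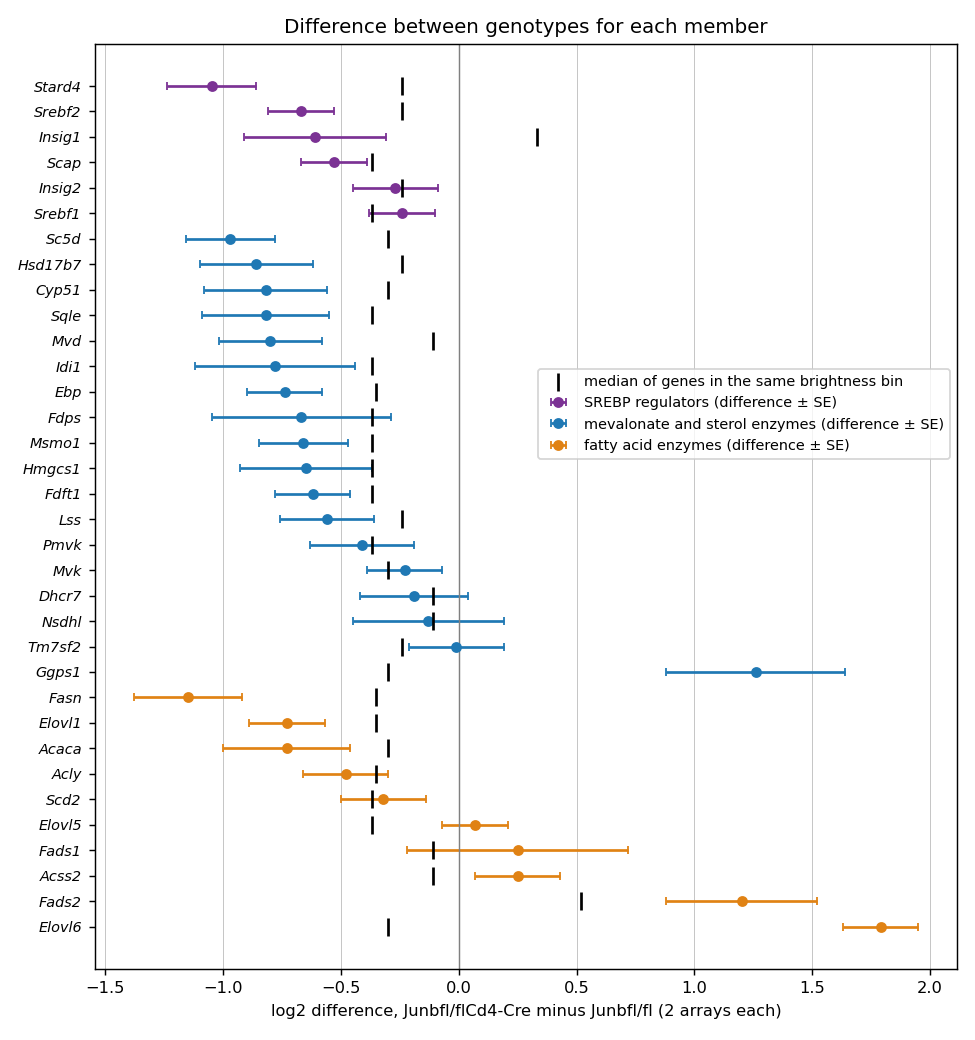
Log2 difference of each member between genotypes (points, bars are SE, 2 arrays each) beside the median of all genes in the same brightness bin (black ticks). The medians were -0.57 for regulators, -0.65 for sterol enzymes and -0.13 for fatty acid enzymes; the last was above 0 under quantile scaling, normexp, the mean of probes and the authors' log2 signals.

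The SREBP regulators were all lower on the Cre arrays, 6 of 6 without overlap, with a median of -0.57, and none was called. Of genes of like brightness 65.6% were lower and 54.6% lower without overlap, against 38.5% of all genes. Relative to the bins they came from, the median was -0.29. Srebf2, the factor for the cholesterol pathway, had relative signals of 3.38 and 3.17 on controls 1 and 2 and 2.09 and 2.03 on Cre arrays 1 and 2. Both controls stood above both Cre arrays by far more than same-genotype arrays differed. The difference was -0.67 ± 0.14 (SE, limma adjusted p = 0.0648), and 18.7% of genes in the brightness bin of Srebf2 were lower still. The second Srebf2 probe, also well above background on 4 arrays, was at -0.40. Srebf1, the factor for fatty acid synthesis, read 16.5 and 15.9 against 13.8 and 13.7, a difference of -0.24 ± 0.14 (adjusted p = 0.261). This small difference was weaker than that of genes of like brightness (-0.37), and it was above 0 under quantile scaling (0.08), under normexp with quantile scaling (0.10) and with the authors' deposited log2 signals (0.09). Scap, the escort, read 17.9 and 17.4 against 12 and 12.4, with a difference of -0.53 ± 0.14 (adjusted p = 0.0812).

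Insig1, which retains SCAP and is itself a target of SREBP, was dim: 0.533 and 0.445 on the controls against 0.403 and 0.251. Control 2 and Cre array 1 were close, and the difference of -0.61 ± 0.30 had an adjusted p of 0.194. It nevertheless lay below most genes of its brightness, where the median was 0.33 and 9.3% of genes were lower still. Insig2, the second retention protein, read 2.07 and 2.39 against 1.68 and 2.01 (-0.27 ± 0.18, adjusted p = 0.309). Its groups were barely apart, and 1 of its 2 other probes had a difference of 0.14. Stard4, a soluble carrier that moves sterol between membranes, read 3.25 and 2.61 against 1.49 and 1.32. That was the most negative difference of the 6, -1.05 ± 0.19 or 2.08-fold lower (adjusted p = 0.0546), and 5.7% of genes in its brightness bin were lower still. The second Stard4 probe had a difference of -1.52.

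Of the 19 sterol enzymes 18 were tested, and 17 had a negative difference, with a median of -0.65. None was called, against 1.43% of all genes called lower. The groups did not overlap in 13 lower and 1 higher. In genes of the same brightness 72.8% were lower (94.4% of the enzymes) and 62% lower without overlap (72.2% of the enzymes). After subtracting the median of each gene's brightness bin the median enzyme stood at -0.29, and 15 of 18 were below that of their bin. The median stayed negative under every scaling run, from -1.18 (median scaling) to -0.34 (normexp with quantile scaling).

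The pathway starts from acetyl-CoA units condensed to HMG-CoA by Hmgcs1, whose promoter carries the sterol element shown above, and its difference was -0.65. Mvk and Pmvk, the kinases that phosphorylate mevalonate, were at -0.23 and -0.41. Mvk was above 0 under quantile scaling (0.02), normexp with quantile scaling (0.05) and the authors' log2 signals (0.06). Mvd, the decarboxylase that makes isopentenyl diphosphate, was at -0.80, Idi1, its isomerase, at -0.78, and Fdps, which builds farnesyl diphosphate, at -0.67 with overlapping groups. Fdft1, which makes squalene and commits the pathway to sterols, was at -0.62, and Lss, the cyclase that forms lanosterol, at -0.56. The steps up to squalene and the cyclase thus had differences of -0.80 to -0.23, apart from Ggps1.

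Squalene epoxidase, Sqle, is a rate-limiting enzyme of the sterol branch. Its relative signal was 17.6 and 12.4 on the controls against 9.6 and 7.24 on the Cre arrays, a difference of -0.82 ± 0.27 (adjusted p = 0.107). The controls were higher than the Cre arrays, but control 1 stood further above control 2 than control 2 above Cre array 1. Hsd17b7, a ketosteroid reductase of the demethylation steps, read 4.91 and 4.03 against 2.89 and 2.08 (-0.86 ± 0.24, adjusted p = 0.0879). Sc5d, the desaturase late in the pathway, read 9.2 and 7.89 against 4.75 and 3.96. By its brightest probe it was the most negative of the sterol enzymes, at -0.97 ± 0.19 or 1.96-fold lower (adjusted p = 0.0578), and 6.09% of genes of its brightness were lower still. The second Sc5d probe, also well above background on 4 arrays, was at -0.23. With the mean of probes Sc5d was at -0.60, less negative than Sqle at -0.82. Between Sqle and Sc5d in the pathway, Cyp51, the lanosterol demethylase, was at -0.82, Msmo1, the methylsterol oxidase, at -0.66, and Ebp, the sterol isomerase, at -0.74.

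Not every late enzyme had such a difference. Tm7sf2, a sterol reductase, read 2.51 and 2.27 on the controls against 2.7 and 2.07 on the Cre arrays, which span the controls (-0.01 ± 0.20, adjusted p = 0.961). Nsdhl, a decarboxylating dehydrogenase, read 1.14 and 0.945 against 1.23 and 0.734, again overlapping (-0.13 ± 0.32, adjusted p = 0.763). Dhcr7, the reductase that completes cholesterol, was at -0.19 with overlapping groups. Without Cre array 2 Tm7sf2 and Nsdhl were at 0.18 and 0.24, and without control 1 Tm7sf2, Nsdhl and Dhcr7 were at 0.06, 0.01 and 0.02, so the sign of these 3 rested on single arrays.

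Ggps1 was the exception among the sterol enzymes. It makes geranylgeranyl diphosphate, which leaves the sterol path for the prenylation of small GTPases. Its brightest probe, at chr13:14154796-14154855 on the files' build mm9, read 3.98 and 3.78 on the controls against 13.2 and 6.6 on the Cre arrays (1.26 ± 0.38, adjusted p = 0.0967). Both Cre arrays were higher, but they differed from each other by 1.00 on the log2 scale. The 5 other Ggps1 probes, all between 14142964 and 14146020 on the same chromosome, had differences of -0.11, 0.07, 0.15, 0.16 and 0.17. The brightest probe lies apart from these 5 and is matched to another cDNA, so the difference belongs to 1 probe and not to the gene's probes as a set.

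Fatty acid enzymes went both ways: of 10 tested, 5 had a negative and 5 a positive difference, with a median of -0.13, and 1 was called, higher. Of all genes 7.03% were called higher. The groups did not overlap in 5 lower (50%) and 4 higher. Genes of like brightness were lower without overlap in 57.9%, and of all genes 36.6% were higher without overlap. The share of lower members, 50%, was below the 68.2% of genes of like brightness, and the median relative to each gene's bin was 0.21. The sign of the arm's median depended on the scaling, from -0.66 under median scaling to 0.11 under quantile scaling, and it was also above 0 with normexp (0.08), the mean of probes (0.05) and the authors' log2 signals (0.05).

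Elovl6, which elongates C16 fatty acids to C18, rose. Its processed signals before any scaling were 396 and 402 on the controls against 1029 and 1017 on the Cre arrays, so it was higher before scaling as well. As relative signals these were 2.62 and 2.78 against 8.62 and 10.1, with the arrays of a genotype far closer to each other than to the other genotype. The difference was 1.79 ± 0.16, or 3.45-fold higher (limma adjusted p = 0.0297), where genes of its brightness had a median of -0.30 and 98.1% of them were lower than Elovl6. It rests on 1 probe, at chr3:129337756-129337815 on build mm9. With any of the 4 arrays left out the difference was 1.68 to 1.90, with adjusted p of 0.0822 to 0.126, in fits that called 0 of all genes (4954 to 8140 at an unadjusted p below 0.05). Under every scaling it stayed positive, and the authors' deposited table gave it a log2 difference of 1.92 with an adjusted p of 0.0339.

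Fads2, the delta-6 desaturase of polyunsaturated fatty acids, was the dimmest member tested: 0.105 and 0.135 on the controls against 0.214 and 0.349. Both Cre arrays were above both controls (1.20 ± 0.32, adjusted p = 0.0808), in a brightness bin whose median was itself 0.52. A second probe, well above background on 3 arrays, had a difference of 0.98. Fads1, the delta-5 desaturase next to it in the genome, read 0.913 and 0.923 against 0.712 and 1.68. The Cre arrays lay on either side of the controls (0.25 ± 0.47, adjusted p = 0.693), the difference was -0.37 without Cre array 2, and its other probe was at -0.11.

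Fasn, the synthase that makes palmitate, had the most negative difference of all 34 members. Its relative signal was 67.6 and 51 on the controls against 29.5 and 23.8 on the Cre arrays. Control 2 was still well above Cre array 1, and the difference was -1.15 ± 0.23, or 2.22-fold lower (adjusted p = 0.0614). In its brightness bin 2.45% of genes were lower still. Elovl1, an elongase for very long chains, read 54.1 and 48.8 against 32.9 and 29 (-0.73 ± 0.16, adjusted p = 0.0674). Acaca, the carboxylase that feeds Fasn with malonyl-CoA, was at -0.73, Acly, which makes cytosolic acetyl-CoA from citrate, at -0.48, and Scd2, a stearoyl-CoA desaturase, at -0.32. By their brightest probes the enzymes from citrate to palmitate (Acly, Acaca and Fasn) thus had negative differences with no overlap, while none passed the test. In their brightness bins 63.9% (Acaca) and 70.2% (Acly and Fasn) of genes were lower without overlap. Genes lower still made up 35% of the bin of Acly and 14.3% of that of Acaca. The other Acaca probes well above background on 4 arrays were at -0.93 and 0.62.

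Elovl5, which elongates polyunsaturated chains, had the smallest difference in this arm. It read 8.16 and 8.66 on the controls against 8.81 on both Cre arrays (0.07 ± 0.14, adjusted p = 0.73). Acss2, which makes acetyl-CoA from acetate, read 1.58 and 1.64 against 2.13 and 1.72 (0.25 ± 0.18, adjusted p = 0.328). Both groups were barely apart, and under median scaling the differences were -0.47 and -0.28. The 3 other Acss2 probes were at 0.37, 1.09 and 1.20.

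The contrast between the arms can be read on each array. After centring each gene on its mean over the 4 arrays, the median sterol enzyme was at 0.47 and 0.09 on controls 1 and 2 and at -0.13 and -0.46 on Cre arrays 1 and 2. The median fatty acid enzyme was at 0.10 and 0.03 against -0.08 and -0.15, and the median regulator at 0.33 and 0.24 against -0.28 and -0.30. The sterol median minus the fatty acid median was 0.37 and 0.06 on the controls against -0.05 and -0.31 on the Cre arrays. The genotypes did not overlap, but control 2 and Cre array 1 were closer to each other than either was to the second array of its genotype. The difference of the arm medians was -0.52, between -0.61 and -0.43 under the settings that kept all arrays, and -0.18 without Cre array 2.

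Sterol enzymes also differed between arrays of 1 genotype. All 18 were higher on control 1 than on control 2 and higher on Cre array 1 than on Cre array 2. This held for 34.1% of all genes, 5 of 10 fatty acid enzymes and 4 of 6 regulators. In the lists of related functions and cell cycle genes below it ranged from 30% (SREBP processing and degradation) to 75% (cell cycle). The medians of array 1 minus array 2 were 0.28 in controls and 0.38 in Cre arrays. Per the file headers all 4 arrays were on 1 slide in 1 scan, with both number 1 arrays in row 1 and both number 2 arrays in row 2. Within row 1 the median sterol difference between genotypes was -0.64, with 15 of 18 lower, and within row 2 it was -0.60, with 17 of 18 lower. For fatty acid enzymes it was -0.34 and -0.15. The comparison was thus about as large within each row as over both for the sterol arm. With the number as a block, limma called 15 members, 12 of them lower, against 30.5% of all genes. The share of members called in that fit, 44.1%, is set by a number that no label ties to a shared culture or litter.

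**Figure D3:**
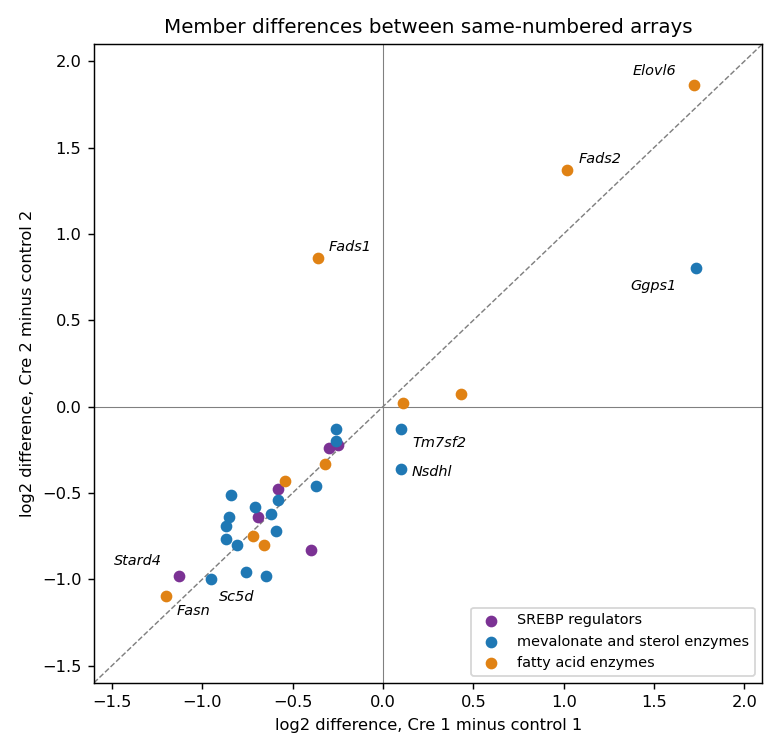
Log2 difference between genotypes for each member in arrays numbered 1 (x axis) and in arrays numbered 2 (y axis), coloured by role; the dashed line marks equal values. Most sterol enzymes lie below 0 on both axes near the line, Elovl6 is at 1.72 and 1.86, and Fads1, Tm7sf2 and Nsdhl have opposite signs on the 2 axes.

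Probes of a member did not always move together. Of 81 member probes 70 entered the test, and 23 members had more than 1. Of the 36 probes besides the brightest, 27 had its sign. The 8 members with a probe of the opposite sign were Acaca, Fads1, Ggps1, Hmgcs1, Insig2, Lss, Msmo1 and Nsdhl. For Hmgcs1 the second probe, at 0.72, had relative signals of 0.0912 to 0.245, against 9.69 to 21 for the brightest. For Acaca the widest gap came from a probe at 2.62 that was well above background on 3 arrays. Where the mean over probes replaced the brightest, Hmgcs1, Acaca and Nsdhl had differences of 0.04, 0.09 and 0.06.

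**Figure D4:**
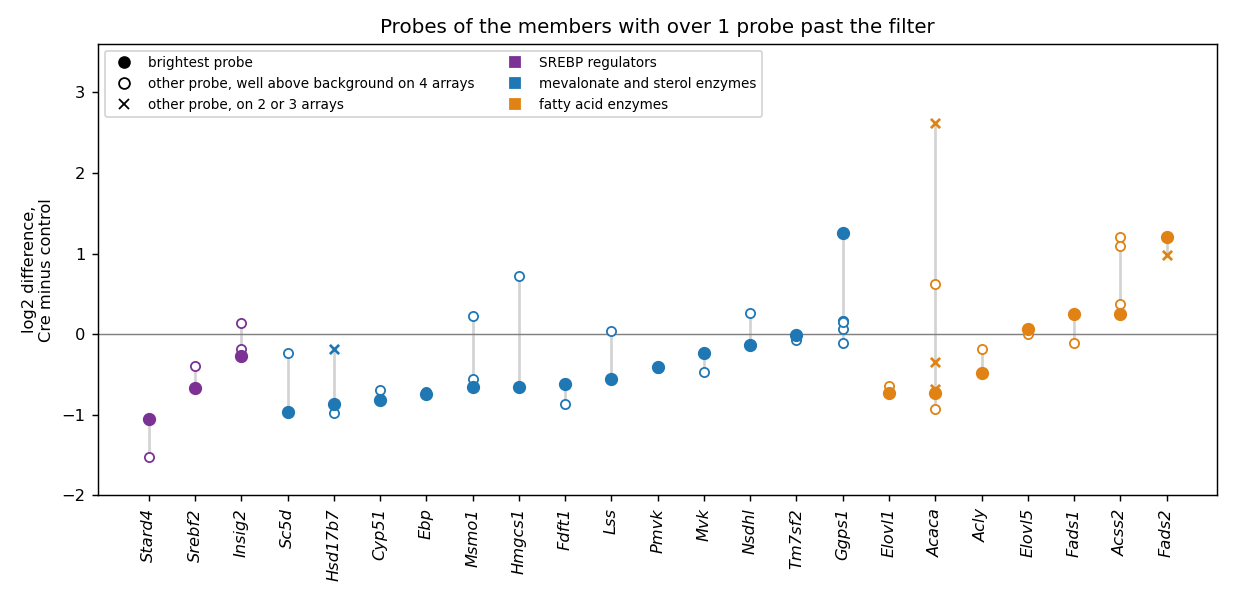
Log2 difference between genotypes for every probe that entered the test, for the 23 members with more than 1; filled points are the brightest probe, open points other probes well above background on 4 arrays, crosses those on 2 or 3 arrays. The brightest Ggps1 probe stands at 1.26 above its other 5, which lie between -0.11 and 0.17.

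How many members were called depended on the scaling between arrays and on the variance model. Scaling by the median, under which the median gene moved from 0.01 to -0.52, called 21 of 34 members, 20 of them lower, where 41.9% of all genes were called. Letting limma's prior variance follow the signal, with robust estimation, called 10 (Ebp, Elovl1, Elovl6, Fasn, Fdft1, Msmo1, Sc5d, Scap, Srebf2 and Stard4), where 22.4% of all genes were called. Quantile scaling, normexp and the authors' log2 signals each called Elovl6 alone. By the authors' deposited table, 25 of the 34 members had a negative log2 difference, among them Stard4 at -1.01 and Fasn at -0.83.

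**Figure D5:**
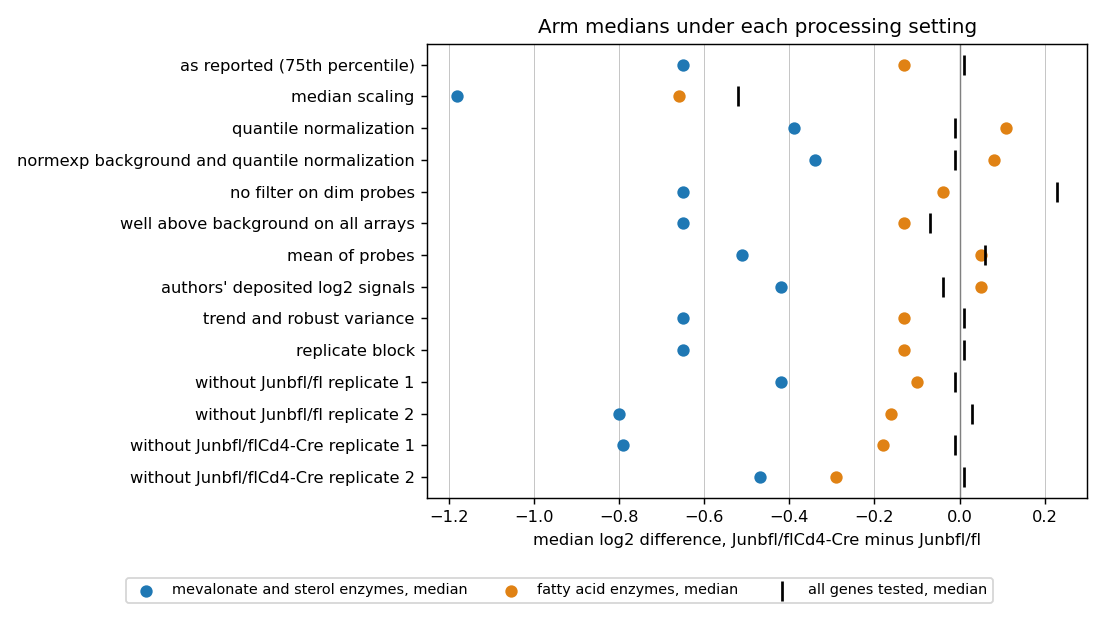
Median log2 difference of the sterol enzymes, the fatty acid enzymes and all genes tested under each processing setting. The sterol median lies between -1.18 and -0.34, below the fatty acid median in every setting shown, while the fatty acid median crosses 0.

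Genes around the pathway were taken from lists of related functions. Of 10 genes for SREBP processing and degradation, 9 were lower (90%, against 69% of genes of like brightness), with a median of -0.21, or 0.05 relative to their bins, and none was called. In this list Erlin1, which helps to degrade sterol-regulated proteins, was at -0.69 and Mbtps2, a protease that cuts SREBP, at -0.50. Of 15 genes for LXR, efflux and storage, 10 were lower (median -0.21), a share of 66.7% against 66.2% of genes of like brightness, and the median relative to their bins was 0.16. Of these Rxra, the partner of LXR, fell from 24.1 and 18.5 to 6.46 and 6.63 (-1.69 ± 0.19, limma adjusted p = 0.0343), and Tmem97, a sterol-binding membrane protein, was at -1.45 without passing the test. Of 12 genes that use isoprenoids 11 were lower (median -0.47), where 65.1% of genes of like brightness were lower, and none was called; relative to their bins the median was -0.25. Pdss1, which makes the ubiquinone tail, was at -1.20 and Icmt, which methylates prenylated proteins, at 1.61 with overlapping groups.

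Of 21 genes for fatty acid activation, elongation partners and glycerolipid assembly 17 were lower (81%, against 65.4% of genes of like brightness), with a median of -0.48, or -0.24 relative to their bins. Among those well above background on all 4 arrays limma called Acsl4, Agpat3, Agpat5 and Oxsm, where 8.46% of all genes were called. Acsl4, which activates arachidonate, fell from 16.3 and 18 to 6.21 and 6.4 (-1.44 ± 0.15, adjusted p = 0.0317). The acyltransferases Agpat3 and Agpat5 fell by 1.32 and 1.12 on the log2 scale (adjusted p = 0.0353 and 0.0483). Acsl6, another acyl-CoA synthetase, was not well above background on the Cre arrays and was at least 2-fold lower. It entered the test through the controls alone, which favours a lower value, and is not counted among these calls. The 17 lower genes and the medians of the list do include it. Oxsm, the ketoacyl synthase of mitochondrial fatty acid synthesis, rose from 80.4 and 112 to 459 and 431 (2.23 ± 0.22, adjusted p = 0.0307). Of 16 genes of fatty acid oxidation 14 were lower (87.5%, against 69.7% of genes of like brightness), with a median of -0.22, or -0.01 relative to their bins, and none was called. In this list Eci1, an enoyl-CoA isomerase, was at -0.65 and Etfa, an electron carrier, at -0.52.

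Cell cycle genes were lower as well, 20 of 20, with a median of -1.56, where 75.5% of genes of like brightness were lower. Relative to each gene's brightness bin the median was -1.26. Top2a, the topoisomerase of dividing cells, fell (-1.79 ± 0.30, adjusted p = 0.0497), and Ccna2 and Cdk1 were at -2.11 and -2.05 without passing the test. Their summed relative signal was 924 and 554 on controls 1 and 2 and 321 and 280 on Cre arrays 1 and 2. The centred medians of sterol enzymes, fatty acid enzymes and regulators all had this order of arrays, so it is not particular to the sterol arm. Whether the lower sterol and regulator signals go with less division was not tested.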

How the data were processed

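RNA was measured on 4 single-colour Agilent arrays. Per the file headers and the submitters' processing notes, scans were read with Agilent Feature Extraction 11.5.1.1, whose deposited spot intensity is background-subtracted but not scaled between arrays. The authors also deposited a table of log2 signals, log2 differences, p-values with Benjamini-Hochberg adjustment, and moderated t and log odds scores; how its signals were normalized is not stated in them or the labels.

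Each array had 62976 spots (59305 not controls), 108 to 215 of which were flagged and left out; none was saturated, and 59.3% to 66.3% were well above background. Spots were averaged over 56605 probes, 33606 of which exceeded background well on both arrays of either genotype. Processed intensity was taken to log2, the array's 75th percentile (151 and 145 on controls, 119 and 101 on Cre arrays) was subtracted, and each gene was given its brightest probe, 22475 in all. limma 3.58.1 in R 4.3.3 (lmFit, eBayes) compared 2 arrays with 2; with so few no permutation test can reach 0.05. The script was tested on simulated data. The number of arrays limits the precision.

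The members and lists were chosen with earlier results of these data known. Values are given for all regulators, and in each enzyme arm for called members, the 4 with the largest and the 2 with the smallest difference, and of each other list for called genes and the 2 largest; other probes, T, B, myeloid, colon, stromal and CD8 or NK markers were read beside them. Alternatives were median, quantile and normexp scaling, filters, the mean of probes, the authors' log2 signals, trended robust variance, a block on the array number and leaving out each array. Across 22475 genes the array 1 minus array 2 differences of both genotypes had r = 0.498 and rho = 0.381, but the labels tie no number to a shared source, so the numbers were not taken as pairs. Promoters are from RefSeq, GRCm38.p6; probe positions are the files', mm9.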

Additional observations from a re-analysis of the deposited data

How the results depend on the processing

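Under every setting the sterol median was negative and 25 to 31 members were lower, and the promoter counts changed by at most 1 when the window was cut to 250 bases. Genes called (1901) became 9416 with median scaling, 455 with quantile normalization, 314 with normexp, 1259 with a signal above background on all arrays, 618 with the authors' log2 signals, 5037 with trended robust variance, and 0 without a filter (8825 at an unadjusted p below 0.05 in limma). Members called (1) became 21 with median scaling, 10 with trended robust variance and 0 without a filter, where Elovl6 had 1.79 and an adjusted p of 0.0909. The sterol median (-0.65) was -1.18, -0.39 and -0.34 with median, quantile and normexp scaling; the fatty acid median (-0.13) was -0.66, 0.11 and 0.08, then -0.04 without a filter, 0.05 with the mean of probes and 0.05 with the authors' signals.

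With each array left out in turn, genes and members called were both 0, the fatty acid median -0.29 to -0.10, the sterol median -0.80 to -0.42 and the sterol minus fatty acid difference -0.64 to -0.18 (main -0.52, lowest in size without Cre array 2). A lone array was assumed to vary like the other genotype. With the replicate block, 6849 genes and 15 members were called. The slide and scan as a block were not run, because there was 1 slide and 1 scan.

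Some members turned sign, none of them called in the main fit or in the fit where the sign turned. Of these, Acaca, Hmgcs1 and Srebf1 were called lower with median scaling, as was Acaca with the replicate block. The turned values were Acaca 0.09, Hmgcs1 0.04 and Nsdhl 0.06 with the mean of probes. With median scaling they were Acss2 -0.28, Elovl5 -0.47 and Fads1 -0.28. Mvk, Srebf1 and Tm7sf2 were at 0.02, 0.08 and 0.15 with quantile, and at 0.05, 0.10 and 0.12 with normexp. Mvk was at 0.06 and Srebf1 at 0.09 with the authors' signals. Over the 4 fits without 1 array Dhcr7 was at -0.41 to 0.02, Fads1 at -0.37 to 0.87, Nsdhl at -0.50 to 0.24 and Tm7sf2 at -0.21 to 0.18. The cause of these changes was not tested beyond fewer arrays or more genes where the setting itself brings them. Signals near background limit Fads2, Insig1 and the markers of other cells.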
